A study of Homo sapiens with 5 samples.

Results

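The clustered protocadherin genes stand in a row on the long arm of chromosome 5. Their methylation was described from peak lists of MeDIP-seq, the sequencing of DNA fragments enriched with an antibody that binds 5-methylcytosine. Members were all peaks overlapping chromosome 5 from 140160000 to 140900000 (hg19). This rule goes by position and uses no measured value, but it was chosen with earlier results of these data known. They numbered 105 of 23350 peaks. By peak midpoint, 62 lay in the alpha sub-cluster (140160000 to 140395000), 15 in beta (140425000 to 140630000), 24 in gamma (140705000 to 140900000) and 4 between beta and gamma. Merging peaks of different libraries that overlapped by at least 1 bp gave 37 regions: 14 alpha, 10 beta, 12 gamma and 1 between.

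All 5 libraries came from K562, an established human chronic myeloid leukaemia line. WT bulk and WT transfected were DNMT3A wild type, and MT1, MT2 and MT4 were lines with mutated DNMT3A, the gene of an enzyme that methylates previously unmethylated DNA. The series title names CRISPR/Cas9 editing, and the labels call the lines clones and do not give the mutations. The wild-type pair are different kinds of culture, so culture history and genotype cannot be told apart. Whether the 3 clones stem from independent edits is not stated. A p between genotypes therefore only ranks the observed grouping among the possible groupings of these libraries. It cannot be extended to DNMT3A mutation in general. Whole lists held 6213 peaks for WT bulk, 4470 for WT transfected, 2842 for MT1, 1426 for MT2 and 8399 for MT4. Every list ended at a caller score of 90 or just above. A site without a peak did not reach that score, and lower methylation cannot be told apart from lower sensitivity of the library.

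Clustered protocadherins are cadherin-type adhesion proteins of the cell surface, best known in neurons, where each cell uses a few of the many genes and so gains an identity that its own branches recognise. In the alpha and gamma sub-clusters a large variable exon with its own promoter codes for the extracellular part and is spliced to constant exons shared by the whole sub-cluster. Beta genes are single exons. DNA methylation of the promoters and variable exons takes part in this choice, and CTCF, a factor that shapes DNA loops and binds at many of these promoters, is hindered by methylation of its sites. The RefSeq gene table (GRCh38.p14) lists 53 protein-coding members: 15 alpha genes, of which 13 are numbered PCDHA1 to PCDHA13 and the others are the C-type genes PCDHAC1 and PCDHAC2, 16 beta genes and 22 gamma genes. C-type genes stand last in the alpha and gamma rows. SLC25A2, a mitochondrial carrier, and TAF7, a subunit of the transcription factor TFIID, stand between PCDHB15 and PCDHGA1.

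Promoter sequences of the first and last alpha and beta genes, of PCDHB16, which stands inside the beta row, and of the first gamma gene are shown because CpG sites are where 5-methylcytosine chiefly occurs in human DNA. They come from RefSeq (GRCh38.p14, plus strand, 250 bases before to 50 after the gene start): PCDHA1 at chr5:140785890-140786189, PCDHAC2 at chr5:140966226-140966525, PCDHB1 at chr5:141051124-141051423, PCDHB16 at chr5:141182137-141182436, PCDHB15 at chr5:141245145-141245444 and PCDHGA1 at chr5:141330264-141330563. These positions are in a different build from the peaks and cannot be set directly against them. Distances between genes were not compared with distances between peaks. Capitals mark CpG dinucleotides.
PCDHA1: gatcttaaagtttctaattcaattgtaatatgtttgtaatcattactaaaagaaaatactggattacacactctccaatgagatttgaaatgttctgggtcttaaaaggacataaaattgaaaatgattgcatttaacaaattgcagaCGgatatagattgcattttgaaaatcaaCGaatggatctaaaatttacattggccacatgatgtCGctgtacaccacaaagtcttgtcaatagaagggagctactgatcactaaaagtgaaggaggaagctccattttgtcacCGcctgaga
PCDHAC2: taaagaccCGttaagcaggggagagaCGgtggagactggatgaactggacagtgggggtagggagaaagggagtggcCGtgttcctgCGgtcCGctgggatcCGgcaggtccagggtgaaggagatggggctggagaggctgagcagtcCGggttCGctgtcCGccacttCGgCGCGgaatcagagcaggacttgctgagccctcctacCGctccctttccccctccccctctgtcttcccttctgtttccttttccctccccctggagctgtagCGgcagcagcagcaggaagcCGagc
PCDHB1: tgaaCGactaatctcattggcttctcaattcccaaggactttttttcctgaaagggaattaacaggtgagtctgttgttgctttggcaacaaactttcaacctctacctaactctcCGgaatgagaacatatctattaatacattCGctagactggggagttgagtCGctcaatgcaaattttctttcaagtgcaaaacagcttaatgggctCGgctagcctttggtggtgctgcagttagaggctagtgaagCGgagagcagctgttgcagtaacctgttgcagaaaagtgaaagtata
PCDHB16: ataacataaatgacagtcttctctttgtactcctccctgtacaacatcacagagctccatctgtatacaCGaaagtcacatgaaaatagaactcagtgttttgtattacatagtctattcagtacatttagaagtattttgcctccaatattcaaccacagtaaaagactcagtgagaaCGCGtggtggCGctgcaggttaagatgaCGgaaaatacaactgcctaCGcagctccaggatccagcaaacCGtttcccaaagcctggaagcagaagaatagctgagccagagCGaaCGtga
PCDHB15: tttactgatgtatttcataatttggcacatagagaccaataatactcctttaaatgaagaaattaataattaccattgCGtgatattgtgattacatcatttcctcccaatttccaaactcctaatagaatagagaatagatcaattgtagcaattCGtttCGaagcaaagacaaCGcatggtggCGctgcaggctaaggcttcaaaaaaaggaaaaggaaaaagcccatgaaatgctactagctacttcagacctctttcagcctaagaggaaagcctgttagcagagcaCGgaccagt
PCDHGA1: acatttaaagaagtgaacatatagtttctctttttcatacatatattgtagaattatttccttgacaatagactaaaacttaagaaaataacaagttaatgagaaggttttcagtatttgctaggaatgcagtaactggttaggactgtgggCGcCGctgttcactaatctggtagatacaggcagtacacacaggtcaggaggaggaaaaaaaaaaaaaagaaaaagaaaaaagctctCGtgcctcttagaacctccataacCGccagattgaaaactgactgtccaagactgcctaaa
The PCDHA1 and PCDHGA1 windows held 4 CpG each, PCDHB1 and PCDHB15 6 each, PCDHB16 9 and PCDHAC2 15. The median was 14 over all 35116 promoters of the table.

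Numbered alpha genes also share a short word just before their starts. ATGTCGCT was found in 9 of the 11 numbered alpha promoters in the table (either strand, other strand AGCGACAT), beginning 42 to 85 bases before the gene start. It was the 8-letter word held by most of them, together with the overlapping GATGTCGC, and was chosen after the sequences were seen. Of the 2 alpha C-type, 14 beta and 25 gamma promoter entries 0 held it, and of all promoters 0.234%. Since the word was picked from the numbered alpha promoters themselves, its rarity elsewhere is a description and no test. PCDHA9 and PCDHA11 lacked these letters in the window. The word contains a CpG and the letters CGCT, known as the core of a conserved element of protocadherin promoters. CGCT by itself is not particular to numbered alpha genes. It also stands in the PCDHAC2, PCDHB1, PCDHB16, PCDHB15 and PCDHGA1 windows printed above. The 30 bases around ATGTCGCT are shown with the word in capitals.
PCDHA1: ttggccacatgATGTCGCTgtacaccacaa
PCDHA2: ttagccacatgATGTCGCTgtccaccatag
PCDHA4: ggagccacatgATGTCGCTctttaccacaa
PCDHA5: tcatccacatgATGTCGCTggacaccggaa
PCDHA6: ggagccgcatgATGTCGCTgtctaccatga
PCDHA7: atggccacatgATGTCGCTctttaccgcaa
PCDHA8: gaagccacatgATGTCGCTgtctaccaaga
PCDHA10: aaagccaccggATGTCGCTgtcgtccacaa
PCDHA12: tcagtcacatgATGTCGCTctacactcaga
The flanking bases were also alike, with ccacatg before the word in 6 of the 9, as the lines show.

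The alpha sub-cluster carried a regular row of strong peaks that stood, in whole or in large part, in every library. The row held 13 regions between 140166773 and 140264306, a stretch of 97.5 kb, as many as there are numbered alpha genes. WT bulk, WT transfected and MT4 had a peak in 13 of the 13, MT1 in 12 and MT2 in 10. The missing peak of MT1 was at the fourth region (140187687 to 140189209), and those of MT2 were at the fifth (140202309 to 140203617), the eleventh (140249677 to 140251076) and the thirteenth (140262769 to 140264306). No region was assigned to a gene, since the annotation used here is of another build.

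**Figure D1:**
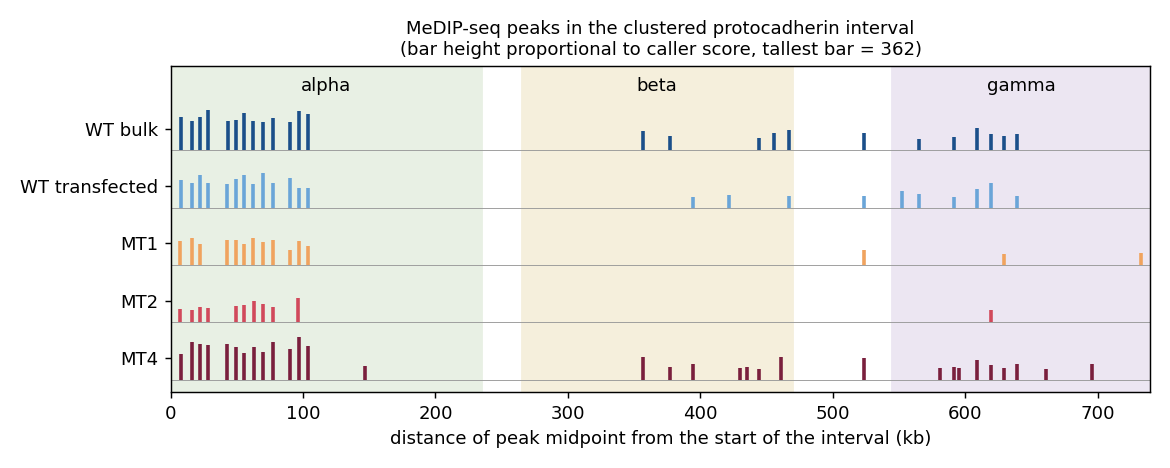
Peaks of each library along the protocadherin interval. The x axis gives the distance of the peak midpoint from the start of the interval in kb, each row is a library, each bar is a peak with a height proportional to its caller score, and shading marks the alpha, beta and gamma sub-clusters. The row of alpha peaks at the left stands in all 5 libraries, while beta bars are missing from MT1 and MT2, the shortest lists.

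Neighbouring alpha regions followed at similar steps, with a median of 6.92 kb between midpoints (5.99 to 14.5 kb over 12 neighbours). The longest steps were 14.5 kb from the fourth to the fifth region and 13.1 kb from the tenth to the eleventh. The RefSeq order places the pseudogene PCDHA14 between PCDHA10 and PCDHA11. Regions and genes were not matched, and whether either long step is related to the gene order was not tested. The libraries placed these peaks alike: the midpoints of a region's peaks differed between libraries by 52 to 225 bp (median 142.5 bp), where the regions themselves were 1309 to 1830 bp wide. Peak width in the row had medians of 1283 bp for WT bulk, 1280 bp for WT transfected, 1244.5 bp for MT1, 1406.5 bp for MT2 and 1355 bp for MT4. Variable exons of different alpha genes resemble one another in sequence, and how reads matching several of them were placed is not given in the sources used here.

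These peaks ranked high in their lists. The score percentile of a peak is the percentage of the same library's peaks that score no higher. Over the alpha row its median was 96.2% for WT bulk (lowest 93.4%, highest 98.6%), 91.7% for WT transfected (80.3 to 98.0%), 92.2% for MT1 (59.4 to 96.0%), 77.7% for MT2 (32.1 to 96.3%) and 96.7% for MT4 (90.4 to 98.9%). WT bulk and MT4 thus had their whole row at percentiles above 90%, and MT2 spread over a wide range. The scores themselves, which are the authors' and are not normalized between libraries, had medians of 274 for WT bulk, 211 for WT transfected, 200.4 for MT1, 136.6 for MT2 and 283 for MT4.

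**Figure D2:**
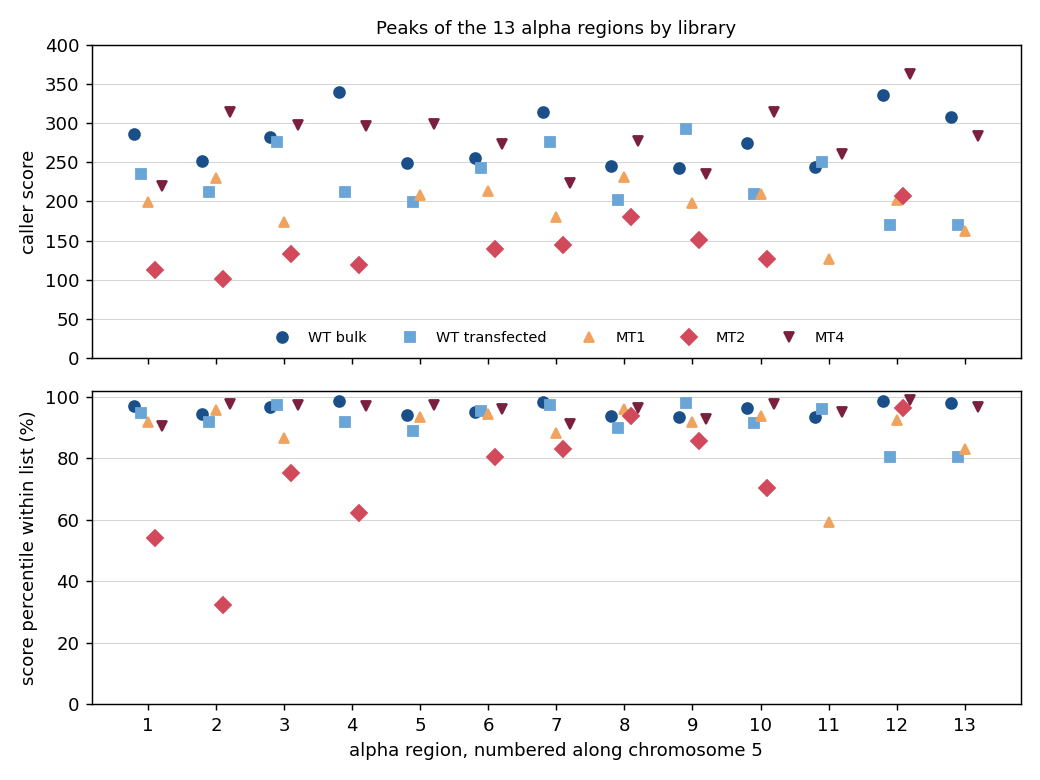
Caller score (top) and score percentile within the list (bottom) of the peaks in the 13 alpha regions, numbered along the chromosome. Each point is the peak of 1 library and a missing point is a region without a peak in that library. MT2 points lie lowest in most regions, with percentiles from 32.1 to 96.3%, and WT bulk and MT4 points lie above 90%.

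Peaks in all 5 libraries were found in 9 of the 37 regions (24.3%), and all 9 were alpha regions. Over all 11260 merged regions of the genome this share was 7.42%. The alpha regions concerned were numbers 1, 2, 3, 6 to 10 and 12 along the row. The eighth (140221906 to 140223342) had the highest mean percentile, 93.9%, with scores of 245 for WT bulk, 202 for WT transfected, 231 for MT1, 180.0 for MT2 and 277 for MT4. At 1830 bp, the third (140181399 to 140183228) was the widest, with scores of 282, 276, 174, 133 and 298 in the same order. The twelfth (140255858 to 140257433) held the highest score of the interval, 362 for MT4, beside 336 for WT bulk, 170 for WT transfected, 202 for MT1 and 207 for MT2. Its values in the mutated lines overlapped those of the wild-type cultures.

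Presence in the row was set beside that of equally strong regions elsewhere. Within the row, missing peaks did not follow the WT bulk score. The fourth region, without a peak in MT1, had the highest, 339. At the fifth, eleventh and thirteenth, without a peak in MT2, it was 250, 244 and 308, beside a row median of 274. Outside the alpha sub-cluster, 398 regions had a WT bulk score of at least 242.78, the lowest of the alpha row in that library, a limit set after the values were seen. Of these, WT transfected had a peak in 97.7%, MT1 in 92.5%, MT2 in 81.2% and MT4 in 98.0%. For the 13 alpha regions the shares were 100% for WT transfected, 92.3% for MT1, 76.9% for MT2 and 100% for MT4. Equally strong regions elsewhere had peaks at similar shares, and no test was made of them. The order of scores within the row was not shared between libraries: Spearman's rho over the 9 to 13 regions held by both libraries of a pair ran from -0.58 (WT transfected with MT4) to 0.37 (MT1 with MT4), given as a description over sites of the same 5 libraries.

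A last alpha region stood apart from the row, 41.8 kb beyond it, from 140306124 to 140307004. It had a peak in MT4 alone, 881 bp wide, with a score of 114 and a percentile of 39.3%. From there to the first beta region no library had a peak over 209 kb, the longest empty stretch inside the interval.

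Beta peaks were fewer, weaker and different from library to library. WT bulk had 5, WT transfected 3, MT1 0, MT2 0 and MT4 7, in 10 regions, none of which was held by more than 2 libraries. Of the 10, 5 had a peak in a single library, near the 49.9% of all regions of the genome. With every list limited to its 1426 strongest peaks, beta peaks numbered 1 in WT bulk, 0 in WT transfected, MT1 and MT2, and 1 in MT4. With only peaks scoring 121.64 or more, they numbered 4 in WT bulk, 0 in WT transfected, MT1 and MT2, and 3 in MT4. Beta percentiles had medians of 65.7% in WT bulk (30.7 to 79.6%), 25.4% in WT transfected (0.872 to 30.8%) and 31.2% in MT4 (3.76 to 84.7%). Nearest to the alpha genes was the first beta region (140516115 to 140517231), with scores of 164 in WT bulk and 194 in MT4. Its MT4 score was the highest beta score of any library, while in WT bulk the tenth region scored higher, 176. The ninth (140620727 to 140621659), with a score of 187, had the highest mean percentile (82.8%) and was in MT4 alone. The widest was the tenth, described below with the regions of the wild-type cultures.

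Gamma peaks were intermediate in number. WT bulk and WT transfected had 6 each, MT1 2, MT2 1 and MT4 9, in 12 regions. Gamma percentiles had medians of 53.5% in WT bulk (7.03 to 82.5%), 52.3% in WT transfected (10.5 to 90.5%), 20.1% in MT1 (8.06 to 32.1%) and 33.1% in MT4 (5.68 to 75.2%), and the 1 peak of MT2 was at 43.0%. The wild-type medians were near the middle of their lists, and those of the mutated lines were lower. They come from different regions, with 2 peaks in MT1, 1 in MT2 and several regions of MT4 alone. The fourth, sixth, seventh and ninth regions were held by MT4 and both wild-type cultures. There MT4 percentiles were 33.1%, 75.2%, 47.4% and 56.1%. Those of WT bulk were 39.8%, 82.5%, 61.7% and 60.3%, and those of WT transfected 10.5%, 75.4%, 90.5% and 18.9%. The seventh gamma region (140778856 to 140780153) was in 4 libraries, with scores of 140.0 in WT bulk, 205 in WT transfected, 107 in MT2 and 121 in MT4, and was the only one with a peak in MT2. The sixth (140768545 to 140769746) had the highest mean percentile, 77.7%, with scores of 186 in WT bulk, 158 in WT transfected and 164 in MT4. The twelfth (140892046 to 140893973) was the widest, 1928 bp, and had a peak in MT1 alone with a score of 105. It stands at the far end of the interval, and RefSeq lists DIAPH1, a gene of an actin-nucleating protein, next after PCDHGC5. Of the 12 gamma regions, 6 had a peak in 1 library alone, near the 49.9% of all regions of the genome. Over the whole interval 12 of 37 regions (32.4%) did, 8 of them in MT4, the longest list.

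The region between beta and gamma (140682904 to 140684287) was found more widely than any beta region. It had peaks in 4 libraries, with scores of 146 for WT bulk, 101 for WT transfected, 126 for MT1 and 185 for MT4, and none in MT2. Its percentiles were 65.7%, 22.9%, 59.3% and 82.3%. MT1, with 0 beta and 2 gamma peaks, had a peak here.

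Peak density was highest in alpha and lowest in beta in each library. Per 100 kb, alpha had 5.53 peaks for WT bulk, 5.53 for WT transfected, 5.11 for MT1, 4.26 for MT2 and 5.96 for MT4. Gamma had 3.08, 3.08, 1.03, 0.513 and 4.62 in the same order, and beta 2.44, 1.46, 0, 0 and 3.41. Alpha exceeded beta by 3.81 ± 1.01 (SD, n = 5) and gamma by 2.82 ± 1.11, and beta minus gamma was -0.998 ± 0.443. Each difference had the same sign in 5 of 5 libraries, with an exact sign-flip permutation p of 0.063 (two-sided, 0.063 after Benjamini-Hochberg adjustment over the 3 pairs), the smallest p that 5 libraries allow, so that no such comparison can pass 0.05. Apart from 1 peak of MT4, the alpha peaks lay within a 97.5 kb part of a window of 235 kb, and the denominators are the full windows. With every list limited to its 1426 strongest peaks, the beta and gamma difference shrank to -0.215 (exact sign-flip p = 0.375), and with only peaks scoring 121.64 or more, the overall median, to -0.343.

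The first question of the design was whether wild-type and mutated libraries differed over these genes. The interval held 25 peaks for WT bulk and 23 for WT transfected, against 15 for MT1, 11 for MT2 and 31 for MT4. Mutated lines lay on both sides of the wild-type cultures, with means of 19 ± 10.6 (SD, n = 3) and 24 ± 1.41 (SD, n = 2), and the difference of -5 (mutated minus wild type, as in all genotype differences given) was smaller than the spread between the mutated lines (exact permutation test, two-sided, p = 0.6). Its smallest possible p is 0.2, so no genotype comparison can pass 0.05. Covered length was 30.2 kb for WT bulk, 25.8 kb for WT transfected, 18.9 kb for MT1, 15.6 kb for MT2 and 34.0 kb for MT4, a difference of -5.13 kb (exact permutation p = 0.6). Without MT4 the differences were -11 peaks and -10.7 kb, and without MT2 they were -1 and -1.53 kb.

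As a share of each list the order was different. Protocadherin peaks were 0.402% of the WT bulk list (95% Wilson interval 0.273 to 0.593%), 0.515% of WT transfected (0.343 to 0.771%), 0.528% of MT1 (0.320 to 0.869%), 0.771% of MT2 (0.431 to 1.38%) and 0.369% of MT4 (0.260 to 0.523%). The intervals cover counting error only, and all 5 overlapped. The share was highest in the shortest list and lowest in the longest. The mean difference between genotypes was 0.098 percentage points (exact permutation p = 0.8), and it turned negative, -0.164, at equal list length, where the interval held 15 peaks for WT bulk, 15 for WT transfected, 13 for MT1, 11 for MT2 and 14 for MT4 (exact permutation p = 0.2). Without MT2 it was -0.010.

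Alpha was the sub-cluster with most peaks in every library, and its share was largest in the shortest lists, MT1 and MT2. They made up 52% of the interval's peaks for WT bulk, 56.5% for WT transfected, 80% for MT1, 90.9% for MT2 and 45.2% for MT4. By genotype the means were 72.0 ± 23.9% (SD, n = 3) mutated and 54.3 ± 3.20% (SD, n = 2) wild type, a difference of 17.8 points (exact permutation p = 0.6). For beta the difference was -8.99 points and for gamma -7.89 points (both exact permutation p = 0.6). The alpha difference was 5.36 points with lists of equal length, 8.32 without MT2 and 31.2 without MT4. That of beta was -0.952 points with lists of equal length, -4.09 above the overall median score, -5.23 without MT1 or without MT2, -5.52 without WT bulk and -16.5 without MT4. That of gamma was -13.5 points above the overall median score, -3.86 without MT2 and -13.8 without MT4.

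Exactly 2 regions, 5.41% of the 37, were held by the wild-type pair without any mutated line, beside 2.74% of all regions of the genome. These were the tenth beta region (140626225 to 140627365), with scores of 176 in WT bulk and 103 in WT transfected, and the second gamma region (140724703 to 140725527), with scores of 93.3 and 113. The scores other than 176 had percentiles of 25.4%, 7.03% and 40.7%. The reverse pattern, all 3 mutated lines without either wild-type culture, was found in 0 of 37 regions, beside 0.071% in the genome. The wild-type-only number was 5 without MT4 and 4 without WT bulk.

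In the 9 alpha regions held by all libraries, percentiles were compared line by line. Mutated lines lay all below both wild-type cultures in 3 of 9, the first, seventh and ninth, and all above in 1, the eighth. Among the 835 such regions of the genome, 14.1% were lower and 1.44% higher. In the seventh region (140214697 to 140216369) the percentiles were 98.2% for WT bulk and 97.2% for WT transfected, against 88.2% for MT1, 82.9% for MT2 and 91.1% for MT4, means of 97.7 ± 0.66% (SD, n = 2) and 87.4 ± 4.17% (SD, n = 3). In the first (140166773 to 140168195) the mutated percentiles were 91.9%, 54.2% and 90.4%, below 97.0% and 94.8%. In the ninth (140228995 to 140230524) they were 91.7%, 85.5% and 92.7%, below 93.4% and 98.0%. In the eighth MT2, at 93.8%, stood just above WT bulk at 93.6%, so that the separation there was narrow. Each of the 4 had an exact permutation p of 0.2, the smallest possible, and 0.973 after Benjamini-Hochberg adjustment over the 835 regions. The raw scores gave the same 3 lower regions (14.7% in the genome) and 0 higher ones (0.359%).

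Overlap within the interval was not higher on average between libraries of one genotype. The Jaccard index, base pairs in both lists over base pairs in either, was highest for the wild-type pair (0.660), then for WT bulk with MT4 (0.643), and lowest for MT2 with MT4 (0.379). Pairs within a genotype had a mean of 0.486 and pairs between genotypes 0.522, a difference of -0.036 (exact permutation p = 0.8), which became 0.079 without MT4 and 0.002 without MT2.

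The interval was denser in peaks than the rest of the genome in each library. It held 33.8 peaks per Mb for WT bulk, 31.1 for WT transfected, 20.3 for MT1, 14.9 for MT2 and 41.9 for MT4, against 2.07, 1.49, 0.946, 0.474 and 2.80 per Mb elsewhere between the first and last peak of each chromosome. The ratio ran from 15.0 in MT4 to 31.4 in MT2. The mean difference was 26.8 ± 9.91 peaks per Mb (SD, n = 5), higher in 5 of 5 libraries (exact sign-flip permutation p = 0.063, the smallest possible). Chromosome 5 outside the interval held 0.567 to 2.75 peaks per Mb, and the interval held 5.89 to 9.73% of the chromosome's peaks. Cut into windows of 740 kb with fixed borders, the genome had 4186 others, of which 0 held as many peaks as the interval in WT bulk, WT transfected, MT1 and MT2, and 1 in MT4, with 32 peaks. The interval was set around its genes, while fixed borders can split other groups of peaks. This ranking can therefore favour the interval and is a description only. The nearest regions outside lay 106 kb before the interval, in 4 libraries, and 793 kb after it, in WT transfected and MT1.

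**Figure D3:**
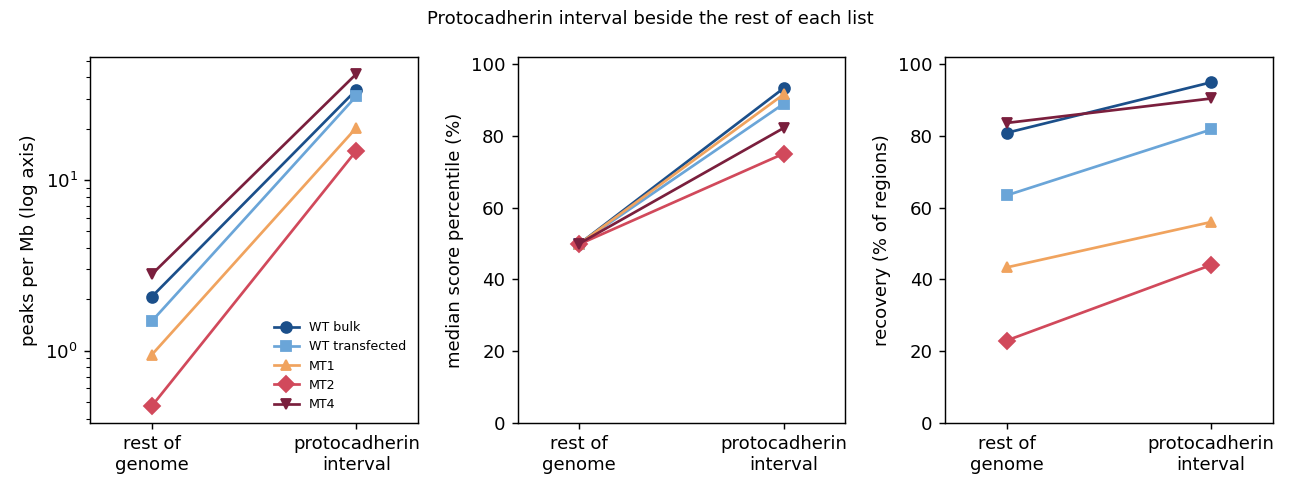
The interval beside the rest of each list: peaks per Mb on a log axis (left), median score percentile (middle) and recovery, the percentage of regions held by at least 2 other libraries that also had a peak in the library (right). Each line is 1 library. All 5 libraries are higher in the interval than in the rest in each panel, and libraries with low recovery elsewhere, MT1 and MT2, are also lowest in the interval.

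The median peak of the interval scored higher than that of the rest of the same list. This held for the alpha row in all 5 libraries, while the medians of beta peaks in WT transfected and MT4 and of gamma peaks in MT1, MT2 and MT4, given above, were below those of the rest. Over all peaks of the interval the median percentile was 93.4% for WT bulk, 89.0% for WT transfected, 91.7% for MT1, 75.1% for MT2 and 82.3% for MT4, above the rest of the list by 36.4 ± 7.52 points on average (SD, n = 5, 5 of 5 libraries, exact sign-flip permutation p = 0.063). Recovery is the percentage of regions held by at least 2 other libraries that also had a peak in the library in question. It was 95% for WT bulk (19 of 20 regions), 81.8% for WT transfected (18 of 22), 56% for MT1 (14 of 25), 44% for MT2 (11 of 25) and 90.5% for MT4 (19 of 21), against 80.9%, 63.4%, 43.3%, 22.9% and 83.6% elsewhere. The difference was 14.6 ± 5.49 points (SD, n = 5, 5 of 5 libraries, exact sign-flip permutation p = 0.063). It was not tested by sub-cluster, and alpha regions weigh heavily in it. Of 14 alpha, 10 beta and 12 gamma regions, MT1 had a peak in 12, 0 and 2, and MT2 in 10, 0 and 1. High recovery is therefore not shown for beta or gamma. Between genotypes, recovery differed by -24.9 points (exact permutation p = 0.4), with MT4 among the wild-type values, and by -15.2 points without MT2 and -38.2 without MT4. Peaks of the interval were narrower than the rest of the list in 4 of 5 libraries. Medians of 1246, 1141, 1233, 1403 and 1166 bp in WT bulk, WT transfected, MT1, MT2 and MT4 stood beside 1255.5, 1184, 1337, 1795 and 1085 bp in the rest (mean difference -93.5 ± 180 bp, exact sign-flip permutation p = 0.3125). The width difference was -259.7 bp with lists of equal length (exact sign-flip permutation p = 0.063), -207.9 bp above the overall median score and -18.9 bp without MT2.

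Promoters of numbered alpha, beta and gamma A-type genes held few CpG, and those of the C-type genes held more. Of the 53 protein-coding genes, 47 had 52 promoter entries in the RefSeq table. Numbered alpha promoters held 3 to 9 CpG in 300 bp (median 7, n = 11), beta 5 to 12 (median 7.5, n = 14) and gamma A-type 2 to 12 (median 5, n = 11), all with medians below the 14 of all promoters. Gamma B-type entries held 7 to 25 (median 13, n = 11), gamma C-type 18 to 24 (n = 3), and PCDHAC1 27 and PCDHAC2 15. Here n counts entries and not genes. PCDHGB1, PCDHGB4, PCDHGB5, PCDHGB6 and PCDHGC4 have repeated entries, and the gamma C-type entries are of PCDHGC3 and PCDHGC4 only. Since the gene table and peaks are of different builds, no promoter was matched to a peak, and whether CpG number is related to peak number was not tested.

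**Figure D4:**
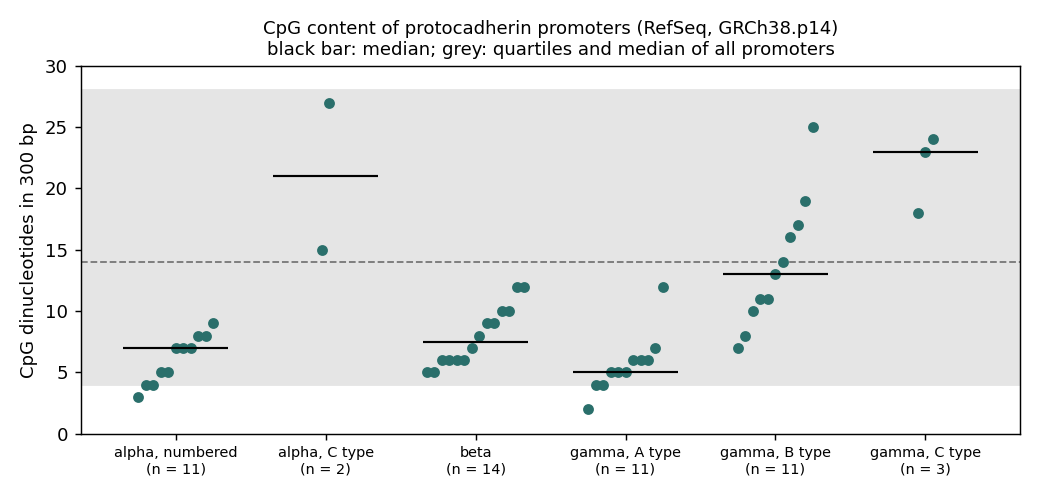
CpG dinucleotides in the 300 bp around the gene start for each clustered protocadherin promoter entry, by class. Points are promoter entries, black bars are class medians, and the grey band and dashed line give the quartiles (4 to 28) and median (14) of all promoters in the table. Numbered alpha, beta and gamma A-type promoters lie in the lower part, and C-type promoters at 15 to 27.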

How the data were processed

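MeDIP-seq was applied to 5 K562 cultures. Paired reads of 100 to 125 bp at about 40 M per library are stated per the labels. Bowtie 1.1.1, edgeR and hg19 stand in the submitters' processing notes, without roles. Each deposited file is the peak list of 1 library, so the authors called peaks on single libraries. Peak names begin with MACS, while its version, its threshold and any input control are not stated there or in the labels. Each line gives a peak's start and end and a score deposited by the authors; no reads per peak are given, so depth is unknown.

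Peaks were merged at 1 bp of overlap (Python 3.11.15, numpy 2.4.6, scipy 1.17.1, pandas 2.3.3), which was tested on simulated lists with 200 planted regions per class, all recovered. The planted regions lay far apart and their peaks always overlapped, so the simulation checked the code alone. Merging of crowded or shifted peaks was not tested. The library was the replicate. Genotypes were compared by exact permutation over 10 groupings and the interval with the rest by exact sign flips over 32 patterns, both two-sided. Coordinates are hg19, counted from 1. Named regions were those in all 5 libraries, those of one genotype alone, and the widest and highest-scoring of each sub-cluster; others named were chosen after their values were seen. Members and lists were chosen with earlier results of these data known. Alternatives were a score limit, equal list length, other overlap rules, midpoint membership, fewer chromosomes and leaving out each library. Genes were not matched to peaks.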

Additional observations from a re-analysis of the deposited data

How the results depend on the processing

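No paired analysis was possible because no label ties any wild-type library to a mutated one. Over 17 tested results and 147 alternatives, 142 kept their sign and 5 did not. Midpoint membership is counted among them, although it gave the same values as the main setting. With all 5 libraries the smallest possible p was 0.063 for exact sign flips and 0.2 for exact permutation of genotypes. No p could therefore fall below 0.063. The genotype difference in share of the list was -0.164 percentage points with lists of equal length and ran from -0.0100 to 0.191 when single libraries were left out (reversed without MT2). That in score percentile, -8.19, was 3.45 with lists of equal length and ran from -12.5 (without MT1) to -4.24 (without MT2) when single libraries were left out. The Jaccard difference ran from -0.0934 to 0.0790 when single libraries were left out, reversed without MT2 (0.00176) and MT4. Wild-type-only regions numbered 1 above the stricter score, 1 with equal lengths, and 2 to 5 with a library left out; mutant-only regions numbered 0 throughout. The excess of density over the rest of the genome was 17.9 to 29.9 peaks per Mb and that of alpha over beta 3.49 to 5.00 per 100 kb. Changed overlap rules do not enter the Jaccard index over base pairs. The lack of read totals and the score limit bound all absences, so that missing beta peaks in MT1 and MT2 cannot be called unmethylated.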
